A study of Mus musculus with 7 samples.

Results

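MHC class I antigen presentation was followed through 10 genes listed by symbol: B2m, H2-D1, H2-K1, Tap1, Tap2, Tapbp, Psmb8, Psmb9, Psmb10 and Nlrc5. Of these, 9 were matched to the array's annotation, each by 1 feature, out of 19505 named genes, and Nlrc5 was not analysed here. RNA came from nucleus pulposus, the soft centre of the spinal disc, on Affymetrix whole-transcript arrays with 1 animal per array. The 3 MCT4KO mice, aged 14 months, lack the lactate exporter MCT4 (gene Slc16a3) in every tissue, and the 4 WT mice, aged 13 months, came from the same heterozygous crosses, set up once the line had been backcrossed for 10 generations. The sample labels give the strain of both groups as C57BL/6, whereas the series text assigns C57Bl/6N to MCT4KO and C57Bl/6 to WT. Age and genotype cannot be told apart, nor can strain and genotype if the series text is right. Lumbar and tail discs of an animal were pooled. The study compared the groups to learn what loss of lactate export does to the disc.

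Nearly all nucleated cells show fragments of their own proteins on MHC class I. The proteasome cuts proteins into peptides, the TAP1 and TAP2 transporter pumps these into the endoplasmic reticulum, and tapasin (Tapbp) holds the transporter beside new class I molecules while they are loaded. A class I molecule is a polymorphic heavy chain, such as H2-K1 or H2-D1, joined to β2-microglobulin (B2m). Interferon-γ raises most of these genes together and swaps the proteasome's catalytic subunits for the immunoproteasome subunits Psmb8, Psmb9 and Psmb10. The healthy nucleus pulposus has no blood vessels and is usually counted among tissues shielded from immune cells.

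Chromosome 17, which carries the mouse MHC, holds 7 of the 9 genes; B2m lies on chromosome 2 and Psmb10 on chromosome 8. RefSeq promoter windows (GRCm38.p6, 250 bases before to 50 after a gene's start) were found for 8 of the 9, Tap2 being the exception. Tap1 and Psmb9 start on opposite strands with 225 bases between them, so the stretch below is upstream of both, and it is shown because both genes start at its ends. It is chr17:34187331-34187555, read on the plus strand toward Tap1, with a CCAAT box (CCAAT) in capitals that lies beside the Psmb9 start.
Tap1 and Psmb9 shared stretch: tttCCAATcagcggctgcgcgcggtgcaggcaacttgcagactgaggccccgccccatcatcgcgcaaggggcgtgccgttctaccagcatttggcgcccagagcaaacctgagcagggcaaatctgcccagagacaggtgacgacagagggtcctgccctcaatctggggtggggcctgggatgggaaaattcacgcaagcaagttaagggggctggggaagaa
The 160 bases before B2m (chr2:122147527-122147686, plus strand) are shown because they hold the 1 match among these windows to the core of an interferon-stimulated response element (ISRE, searched as GAAA, any 2 bases and GAAA), in capitals together with a CCAAT box on the opposite strand.
B2m: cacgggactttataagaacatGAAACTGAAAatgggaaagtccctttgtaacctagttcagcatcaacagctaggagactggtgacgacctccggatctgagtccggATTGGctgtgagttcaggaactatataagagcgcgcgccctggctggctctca
The 160 bases before Psmb8 (chr17:34198035-34198194, plus strand) hold the 1 match to the interferon-γ activated site (GAS, searched as TTCNNNGAA), in capitals.
Psmb8: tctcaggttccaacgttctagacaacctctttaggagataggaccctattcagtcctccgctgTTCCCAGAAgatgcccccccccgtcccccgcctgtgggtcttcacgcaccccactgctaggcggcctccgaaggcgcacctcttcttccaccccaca
Both strands were searched. The ISRE core was in the window of 1 of 8 genes (B2m) and in 3.44% of all 32851 windows. GAS was in 1 of 8 (Psmb8) and in 8.30%, and the CCAAT box in 6 of 8 and in 37.4%. The 8 genes had 9 windows, and a match in any window of a gene counted, whereas the percentages are of single windows. The CCAAT match of Tap1 and that of Psmb9 are the same letters, since their windows overlap. A match is a description of the sequence only.

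Class I presentation RNA did not pass the test in MCT4KO discs: limma called 0 of the 9 genes at an adjusted p under 0.05, where it called 0.59% of all genes. At an unadjusted p under 0.05, 4 of the 9 were lower in MCT4KO (Tap1, Tap2, Psmb10 and B2m) and 0 were higher, against 6.9% of all genes lower and 5.76% higher. The log2 change was below 0 in 8 of the 9 genes, against 47% of all genes, and its median was -0.39, against 0.017 over all genes. The median gene is Psmb9, which lies near the background of the arrays, and the median was -0.19 with values raised to the control median and -0.23 without MCT4KO 1. The point estimates were 1.31-fold to 1.56-fold below WT for Tap1, Tap2, B2m, Psmb9 and Psmb10, 1.14-fold for Psmb8, and within 1.08-fold of WT in either direction for the heavy chains and Tapbp. Slc16a3 itself checked the genotypes, at 4.82 ± 0.306 in MCT4KO (SD, n = 3) and 13.48 ± 0.124 in WT (SD, n = 4) on the deposited log2 scale.

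**Figure D1:**
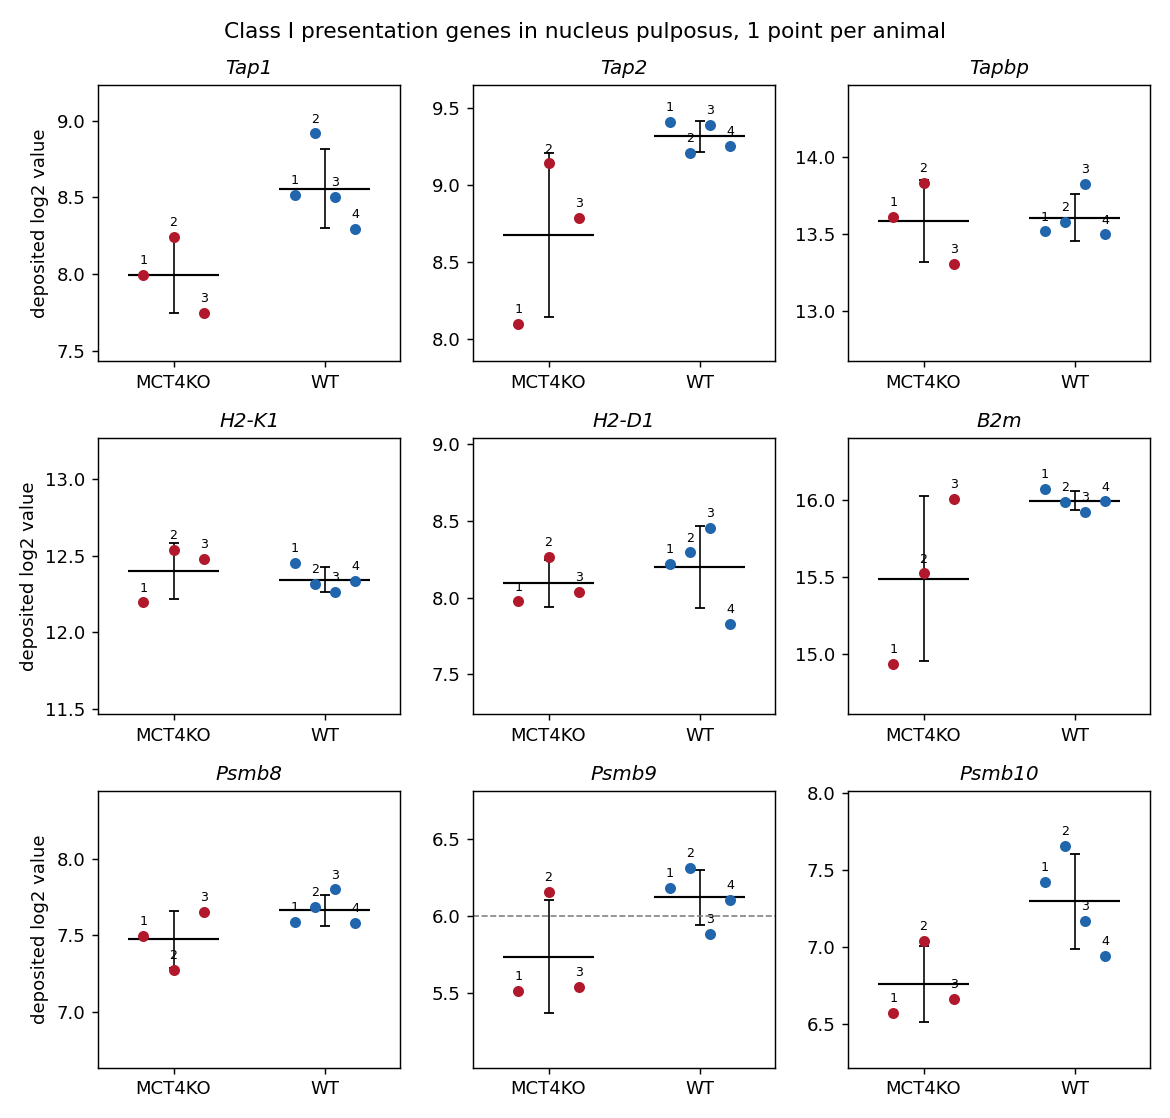
Deposited log2 value (vertical axis, of the same height in every panel) of the 9 genes in each animal, MCT4KO in red on the left and WT in blue on the right, numbered by animal, with the group mean (line) and SD (bar); the dashed line in the Psmb9 panel is the median of negative control features, 5.996. The groups do not overlap for Tap1 and Tap2, and MCT4KO 1 is the lowest of all animals for B2m (14.93) and Tap2 (8.09).

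Tap1 and Tap2 encode the subunits of the peptide transporter, and they were the 2 members whose groups did not overlap. Every MCT4KO animal lay below every WT animal in 6.37% of all genes. Tap1 read 7.995, 8.24 and 7.75 in MCT4KO 1, 2 and 3, against 8.51, 8.92, 8.50 and 8.29 in WT 1, 2, 3 and 4. The highest MCT4KO value was thus only 0.051 below the lowest WT value. The change was -0.56 ± 0.181 (log2, SE; limma adjusted p = 0.26), or 1.48-fold lower in MCT4KO. Tap2 read 8.09, 9.14 and 8.78 in MCT4KO 1, 2 and 3, against 9.41, 9.21, 9.39 and 9.25 in WT 1, 2, 3 and 4. The WT animals agreed closely and MCT4KO 1 stood well below the other knockouts, with an SD of 0.533 in MCT4KO and 0.101 in WT. Its change was -0.64 ± 0.222 (limma adjusted p = 0.29), and -0.35 ± 0.157 without MCT4KO 1 (limma adjusted p = 0.53). Tapbp, the tapasin that joins the transporter to the loading class I molecule, read 13.61, 13.83 and 13.31 in MCT4KO animals and 13.52, 13.58, 13.83 and 13.50 in WT animals. The groups overlapped, with MCT4KO 3 below every WT animal, and the change was -0.02 with a 95% interval of -0.38 to 0.34.

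The heavy chains H2-K1 and H2-D1 bind the peptide and are what T cells read. H2-K1 read 12.20, 12.54 and 12.48 in MCT4KO 1, 2 and 3, against 12.46, 12.32, 12.27 and 12.33 in WT 1, 2, 3 and 4. MCT4KO animals were both the lowest and the highest of the 7, and the change was 0.06 with a 95% interval of -0.24 to 0.36 (limma adjusted p = 0.89). H2-D1 read 7.98, 8.27 and 8.04 in MCT4KO animals, against 8.22, 8.29, 8.45 and 7.83 in WT animals. The groups overlapped, with WT 3 highest and WT 4 lowest, and the change was -0.11 with an interval of -0.49 to 0.27 (limma adjusted p = 0.83). Class I heavy chain genes are close copies of one another, so signal may be shared among them and each single value is uncertain.

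B2m, the light chain that every class I molecule needs, separated the knockout animals from each other more than from WT. It read 14.93, 15.52 and 16.01 in MCT4KO 1, 2 and 3, against 16.07, 15.99, 15.92 and 15.99 in WT 1, 2, 3 and 4. MCT4KO 3 lay inside the WT range and MCT4KO 1 was the farthest below it. The SD was 0.539 in MCT4KO and 0.0608 in WT, and the change of -0.51 ± 0.221 (limma adjusted p = 0.38) became -0.23 ± 0.167 without MCT4KO 1 (limma adjusted p = 0.71). Without MCT4KO 3 it was -0.77 ± 0.185 (limma adjusted p = 0.16).

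The immunoproteasome subunits differed among themselves. Psmb10, which replaces Psmb7, read 6.57, 7.04 and 6.66 in MCT4KO 1, 2 and 3, against 7.42, 7.65, 7.17 and 6.94 in WT 1, 2, 3 and 4. MCT4KO 2 and WT 4 overlapped by 0.098, and the change was -0.54 ± 0.195 (limma adjusted p = 0.30). Psmb9, which replaces Psmb6 and starts beside Tap1, read 5.51, 6.16 and 5.54 in MCT4KO animals, against 6.18, 6.31, 5.88 and 6.10 in WT animals. Only 1 of 3 MCT4KO arrays and 3 of 4 WT arrays read above the median of their negative controls, so the size of its change, -0.39 ± 0.188 (limma adjusted p = 0.43), is uncertain. The other 8 genes read above that median on all 7 arrays. Psmb8, which replaces Psmb5, read 7.49, 7.28 and 7.65 in MCT4KO animals, against 7.59, 7.68, 7.80 and 7.58 in WT animals. MCT4KO 3 lay inside the WT range and the other knockouts below it, with a change of -0.19 and an interval of -0.50 to 0.12 (limma adjusted p = 0.60).

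Immunosubunits were also set against the constitutive subunits they displace, within each animal, in 2 pairs (Psmb5 was not analysed here). The log2 difference of Psmb10 minus Psmb7 was -6.34, -6.19 and -6.49 in MCT4KO 1, 2 and 3, against -5.70, -5.35, -5.91 and -5.90 in WT 1, 2, 3 and 4; only its difference between groups has a meaning, since levels of different features are not comparable. Every MCT4KO animal was lower, by 0.62 on average, with an exact two-sided permutation p of 0.0286, the smallest that the 35 splits allow, and 0.0571 adjusted over the 2 pairs, which does not pass. Psmb7 itself changed by 0.09 ± 0.138 (limma adjusted p = 0.83). Psmb9 minus Psmb6 changed by -0.02 (exact two-sided permutation p = 0.886, adjusted p = 0.886). With values raised to the control median, near which Psmb9 lies, this difference was 0.27, so its sign and size are uncertain. Psmb6 itself changed by -0.37 ± 0.147 (limma adjusted p = 0.34).

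**Figure D2:**
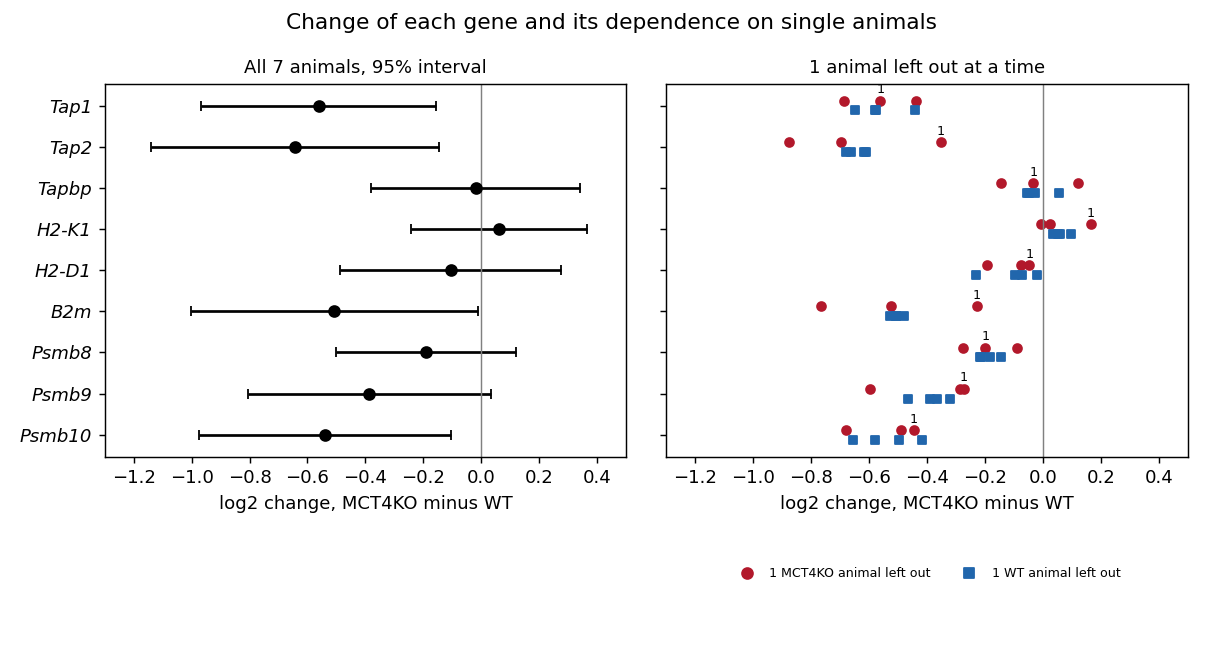
Log2 change of the 9 genes, MCT4KO minus WT (horizontal axes): on the left over all 7 animals with 95% intervals from limma, on the right with 1 animal left out at a time (red circles, an MCT4KO animal; blue squares, a WT animal; "1" marks the value without MCT4KO 1). B2m and Tap2 move most toward 0 without MCT4KO 1, to -0.23 and -0.35, whereas Tap1 stays at -0.56.

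Across the 9 genes MCT4KO 1 was the lowest of all animals for 5, MCT4KO 3 for 2, and MCT4KO 2 and WT 4 for 1 each. Their mean difference from the WT average was -0.52, -0.12 and -0.32 in MCT4KO 1, 2 and 3, and 0.032, 0.096, 0.014 and -0.14 in WT 1, 2, 3 and 4, so MCT4KO 2 lay inside the WT spread. MCT4KO 1 fell below the WT range for 7 genes, MCT4KO 3 for 5 and MCT4KO 2 for 4, and MCT4KO 2 lay above that range for 2. The count of 4 genes lower at an unadjusted p under 0.05 was 1 without MCT4KO 1, 2 without MCT4KO 3, 2 without WT 2 and 0 without WT 1 and WT 2. Tap1 remained without MCT4KO 1, B2m and Tap2 without MCT4KO 3, and Tap1 and Tap2 without WT 2. The changes of genes that dropped out were -0.23 for B2m, -0.35 for Tap2 and -0.45 for Psmb10 without MCT4KO 1, -0.49 for Psmb10 and -0.44 for Tap1 without MCT4KO 3, and -0.42 for Psmb10 and -0.51 for B2m without WT 2.

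Among the other genes of the class I pathway, apart from Psmb6, no gene passed either the adjusted or the unadjusted threshold. Of 18 other class I and class I-like heavy chains (25 listed), 0 were called by limma and 0 had an unadjusted p under 0.05; their changes ran from -0.33 to 0.26 with a median of 0.02, and 7 were at background in both groups, meaning at or below the negative control median on every array. Among those measured above it, H2-T10 changed by -0.24 ± 0.153 and H2-Q4 by -0.18 ± 0.138 (limma adjusted p = 0.54 and 0.62). Chaperones, peptide editors and peptidases of the endoplasmic reticulum and cytosol gave 0 of 9 called and 0 at an unadjusted p under 0.05. In this list calnexin (Canx), which folds new heavy chains, changed by 0.18 ± 0.134, and Pdia3, the oxidoreductase of the loading complex, by 0.18 ± 0.137 (limma adjusted p = 0.60 and 0.61). Of 14 further proteasome core subunits and assembly factors 0 were called and 0 had an unadjusted p under 0.05, with changes of -0.20 to 0.22. The interferon-inducible activator subunits Psme1 and Psme2, which open the proteasome, changed by -0.19 ± 0.165 and -0.09 ± 0.147 (limma adjusted p = 0.67 and 0.83), and 0 of 4 activators were called or had an unadjusted p under 0.05.

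Next came the signalling and transcription genes that act upstream of class I, and other effectors that interferon-γ induces. Of 19 interferon pathway and class I transcription genes, 0 were called by limma and 1 was lower at an unadjusted p under 0.05: Irf9, the DNA-binding part of the interferon-stimulated factor ISGF3, read 5.77, 6.31 and 6.30 in MCT4KO 1, 2 and 3, against 6.88, 6.35, 6.45 and 6.68 in WT 1, 2, 3 and 4 (change -0.47 ± 0.187, adjusted p = 0.35). MCT4KO 1 read below its control median for Irf9, so the size of the Irf9 change is uncertain. Rfx5, a subunit of the complex that binds class I and class II promoters, changed by -0.30 ± 0.182 (adjusted p = 0.52). The list's median change was -0.07. Of 12 GBP, IRG and other interferon-γ effector genes, 0 were called and 4 were lower at an unadjusted p under 0.05, against the 6.9% of all genes given above, with a median of -0.30. At background in both groups were 4 of the 12, and the median was -0.64 over genes above the median gene and -0.27 with values raised to the control median. Cd274, which encodes the T cell inhibitor PD-L1, read 8.12, 8.66 and 8.56 in MCT4KO 1, 2 and 3, against 9.66, 9.93, 9.49 and 8.99 in WT 1, 2, 3 and 4. Its groups did not overlap, and the change was -1.07 ± 0.228 (limma adjusted p = 0.081). The immunity-related GTPases Irgm1 and Irgm2 changed by -1.25 ± 0.343 and -0.71 ± 0.193 (limma adjusted p = 0.18 and 0.17). The guanylate-binding protein Gbp2 changed by -0.77 ± 0.240 (limma adjusted p = 0.23). These genes and Cd274 had the smallest p of the 12, of which 8 changed below 0 and 4 above. Over all genes 47% were below 0. Among those above 0, Gbp4 changed by 0.03 ± 0.131, while Iigp1, Cxcl9 and Ido1 were at background on every array. The mean of the effector list was lowest in MCT4KO 1 at 7.17, as it was for the class I genes. It was 7.48 and 7.33 in MCT4KO 2 and 3 and 7.54 to 7.93 in WT animals. MCT4KO 1 was also the lowest animal for the means of constitutive proteasome subunits (12.29), proteasome activators (11.82) and interferon pathway genes (8.89).

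MHC class II genes and lymphocyte receptors for class I were mostly at background. Of 10 class II genes, 7 were at background in both groups and 0 were called; H2-Ab1, a class II β chain, read 9.73 to 10.10 over all animals and changed by 0.13 ± 0.126 (limma adjusted p = 0.70), and the 1 gene higher at an unadjusted p under 0.05, H2-Ob, was at background throughout. Of 11 receptors and ligands of T and NK cells, 7 were at background in both groups and 0 were called, and at an unadjusted p under 0.05 there was 1 in each direction. Shares of all genes at that threshold were 6.9% lower and 5.76% higher.

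In bulk tissue, fewer cells of a type and less RNA per cell cannot be told apart, and leukocytes carry much class I RNA. Of the 15 neutrophil and marrow markers, 15 were below 0 and 6 lower at an unadjusted p under 0.05 (0 called by limma), against 47% and 6.9% of all genes. The list means were 5.07 to 5.61 in MCT4KO animals and 5.81 to 9.29 in WT animals, and 10 of the markers were at background in MCT4KO alone. S100a8, a neutrophil calprotectin subunit, read 5.56, 4.31 and 5.57 in MCT4KO 1, 2 and 3, against 10.41, 13.04, 7.71 and 7.86 in WT 1, 2, 3 and 4. Without WT 1 and WT 2 the median change of the 9 class I genes was -0.26, with Tap1 at -0.40 ± 0.198, Tap2 at -0.65 ± 0.293, B2m at -0.47 ± 0.295 and Psmb10 at -0.30 ± 0.199 (limma adjusted p of 0.57, 0.53, 0.66 and 0.68). Pan-leukocyte markers overlapped, at means of 6.45 to 6.49 in MCT4KO and 6.35 to 7.34 in WT. Of these 8 markers, 6 changed below 0 and 2 above, with a median of -0.10, where 47% of all genes were below 0. Limma called 0, 0 had an unadjusted p under 0.05, and 3 were at background in both groups. The surface protein Cd53 had the largest change, -1.05. It read 4.16 to 4.99 in MCT4KO, against 5.97, 7.49, 4.57 and 4.76 in WT 1, 2, 3 and 4. Only WT 1 and WT 2 read above their control medians for Cd53. At background in both groups were 8 of 10 B, T and NK cell markers, 7 of 9 endothelial markers and 6 of 11 macrophage markers, and 0 of each list were called by limma. At an unadjusted p under 0.05 there were 0 B, T and NK cell markers, 1 endothelial marker higher, and 1 macrophage marker in each direction. Over all genes 6.9% were lower and 5.76% higher at that threshold. Fcgr1, a macrophage Fc receptor, read 6.67, 6.32 and 6.67 in MCT4KO 1, 2 and 3, against 6.20, 5.79, 5.46 and 6.19 in WT 1, 2, 3 and 4, without overlap (change 0.65 ± 0.203, limma adjusted p = 0.24). WT 2 and WT 3 read below their control medians for Fcgr1, so the size of its change is uncertain. Ccr2, a monocyte chemokine receptor, and the endothelial sialomucin Emcn did not overlap either but were at background on every array, with changes of -0.57 ± 0.202 and 0.42 ± 0.145 (limma adjusted p = 0.29 and 0.28). Erythroid markers, 3 of 8 measured, had means of 6.23 to 6.46 in MCT4KO and 6.45 to 7.91 in WT. MCT4KO 1, the lowest animal for most class I genes, had the highest skeletal muscle marker mean (6.63, against 5.84 and 6.28 in the other MCT4KO animals and 5.78 to 6.54 in WT). It was also the highest of the 7 animals for the means of nucleus pulposus (13.55), annulus fibrosus (7.93), endothelial (5.19), B, T and NK cell (4.70) and MHC class II (6.05) genes. Annulus fibrosus markers had means of 7.61 to 7.93 in MCT4KO and 7.59 to 7.84 in WT. The part of these markers in the class I result was not tested. Nucleus pulposus markers were present, with 1 of 13 at background in both groups and means of 13.32 to 13.55 in MCT4KO and 13.07 to 13.27 in WT. Every MCT4KO animal thus had a higher mean of these markers than every WT animal. Of the 13, 11 changed above 0 and 2 below, where 47% of all genes were below 0. Their median change was 0.16 and 0 were called by limma (smallest adjusted p = 0.088).

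**Figure D3:**
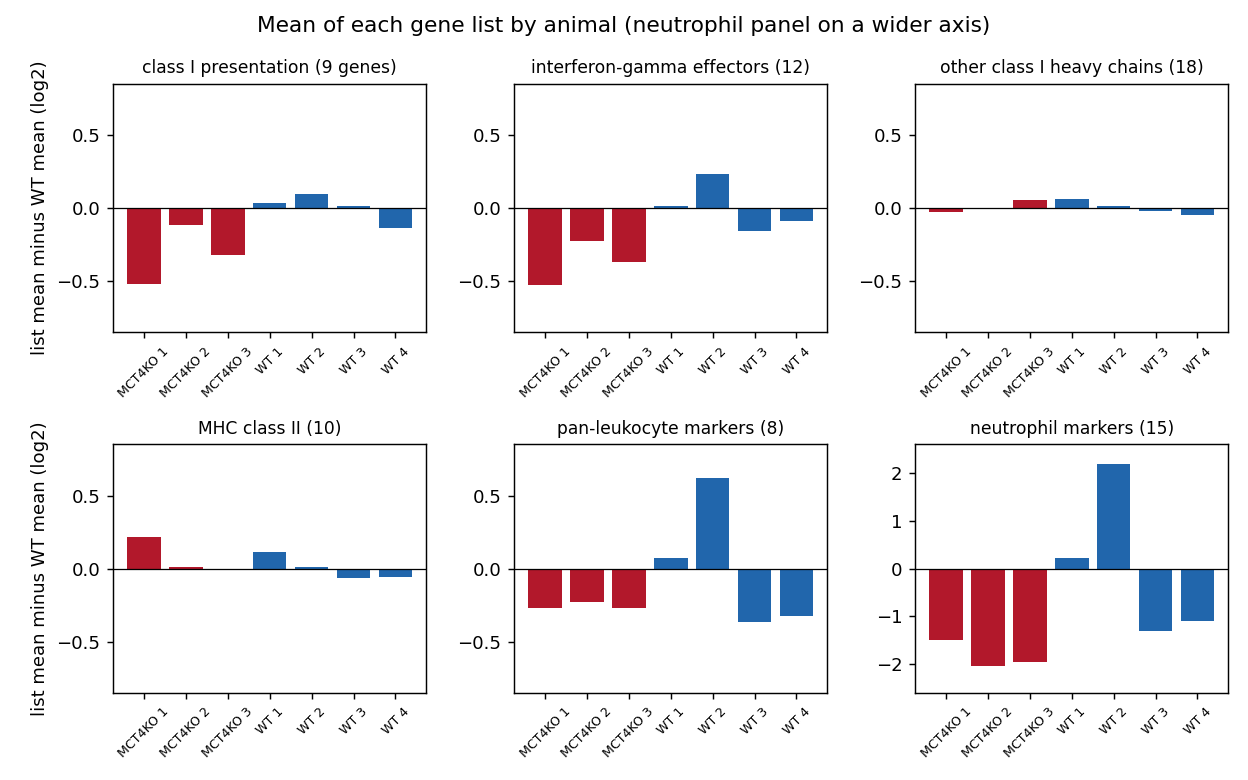
Mean log2 value of 6 gene lists in each animal minus the WT mean (vertical axis; the neutrophil panel has a wider axis), MCT4KO in red and WT in blue, 1 bar per animal. Class I presentation and interferon-γ effector genes are both lowest in MCT4KO 1 (-0.52 for class I), other class I heavy chains stay near 0, and neutrophil markers are highest in WT 2.

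The genes outside these lists whose pattern over the 7 arrays was most like the mean of the 9 were, among 9420 genes above background on every array, Afg3l1, Chrac1, Ube2d1, Dbnl, Clpp and Lrsam1, with Pearson's r of 0.995, 0.992, 0.988, 0.987, 0.984 and 0.977. These are the highest of many correlations over points that share the same 7 arrays and 2 groups, and are given as a description. None was called by limma: Lrsam1 read 6.49, 7.85 and 7.18 in MCT4KO 1, 2 and 3, against 8.69, 8.40, 8.24 and 7.93 in WT 1, 2, 3 and 4, a change of -1.14 ± 0.295 (adjusted p = 0.15), and Clpp changed by -0.38 ± 0.165 (adjusted p = 0.39). Each had the order MCT4KO 1, 3 and 2 from low to high among knockouts, as the class I mean did. The genes were picked for that likeness, so the shared order is no separate result.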

How the data were processed

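The authors deposited 1 log2 value per feature for each of 7 arrays, and the submitters' processing notes name Affymetrix Expression Console 1.4.1. The sources used here do not state the background correction, normalization or probe summary. The range of the values shows a log2 scale, and no further normalization was applied. Of 22206 transcript clusters 19572 carried 1 gene symbol, 0 several and 2634 none here; for the 55 genes with several features the one with the highest mean over the 7 arrays was kept. The 5222 negative control features gave the background, with array medians of 5.91 to 6.08. Precision is limited by the number of animals: the median SE of a log2 change was 0.167.

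MCT4KO was compared with WT over all 19505 genes in limma 3.58.1 (R 4.3.3; lmFit and eBayes, no covariate, 5 residual and 4.66 prior degrees of freedom), two-sided, with Benjamini-Hochberg adjustment over all genes and a threshold of 0.05. P-values measure the spread between single animals. The 2 subunit pairs had exact permutation tests (Python 3.11.15). The members and lists were chosen with earlier results of these data known. Named were all members, Psmb6, Psmb7, and in each list called genes and up to 4 with the smallest p, of which a selection is given; the 6 most alike genes leave out predicted genes, Rik clones and small RNAs. Alternatives were other normalizations, filters, variance models, a replicate block and leaving out animals. The pair of Psmb8 with Psmb5 was not run, since Psmb5 was not analysed here.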

Additional observations from a re-analysis of the deposited data

Results flagged for a closer look

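Among 81 genes and pairs checked in the 4 WT animals, 6 had 1 animal far from the other 3 for the range of the 4 values. Chance flags about 1 group in 20. None of the 9 class I presentation genes was among them. WT 2 was high for the peptidase Thop1 (7.95, against 7.62 in the next animal) and for the class II gene H2-DMb2 (5.59, against 5.15, both below the control median). WT 1 was low for the kinase Jak2 (10.46, against 10.80). WT 3 was low for Cd24a (17.43, against 17.46), Esam (5.62, against 5.91) and Thbs4 (5.33, against 5.90), and the Esam and Thbs4 values also lie below the control medians of their arrays. The Cd24a gap is well below the median SE of 0.167, and it was flagged only because the range of its values is narrow.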

How the results depend on the processing

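The 9 genes gave 0 calls under all 16 alternatives, and 6 of them (B2m, Tap1, Tap2, Psmb8, Psmb9 and Psmb10) kept their sign in each one where they were fitted. The other 3 lie near 0: H2-D1 was 0.0027 and Tapbp 0.018 under quantile normalization, and with 1 animal left out H2-K1 ran from -0.0069 to 0.16 and Tapbp from -0.15 to 0.12. The median change of the 9 was -0.19 with values raised to the control median and -0.52 to -0.23 with 1 animal left out. Members lower at an unadjusted p under 0.05 numbered 1 to 4 with 1 animal left out and 0 without WT 1 and WT 2, where fewer animals were tested. Over all genes 115 were called, 15 to 64 with 1 animal left out and 16 without WT 1 and WT 2. Psmb9 minus Psmb6 was 0.27 with values raised, 0.13 without WT 1 and WT 2 and -0.22 to 0.16 with 1 animal left out; Psmb9 lies at the control median. Psmb10 minus Psmb7 was -0.70 to -0.50 with 1 animal left out and -0.43 without WT 1 and WT 2. Groups of fewer animals give values only, as 0.05 is out of reach. With the animal number as a replicate block, 6 genes were called over all and the median of the 9 was -0.39. The pairs by number deviated with correlations of -0.13, 0.016 and 0.05. Of 3 MCT4KO animals, 0 deviated most like the WT animal of their number. No pairing by number was seen, but 3 pairs are too few to exclude one. Causes of these differences were not tested. Changes close to the SE of 0.167 could not be detected with 3 and 4 animals, and far larger ones were not called either. Examples are Tap1 at -0.56 ± 0.181 and Cd274 at -1.07 ± 0.228 (limma adjusted p = 0.26 and 0.081). The 0 calls therefore do not show that the 9 genes were unchanged.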
